A study of Homo sapiens with 9 samples.

Results

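The genes described here are those of the distal long arm of chromosome 10, in 9 RNA sequencing libraries of a breast cancer cell line and of 2 knockout clones made from it. A gene was taken when all of its listed exons lay on chromosome 10 and its first listed exon start lay past position 100000000 (GRCh38). Its counts also had to sum to at least 10 over the 9 libraries. Exon starts are listed by coordinate, so for a gene on the minus strand the first one lies where its transcript ends. Of 56505 rows in the count tables, 541 lay in that stretch, 281 of these had fewer than 10 counts, and 260 were kept. The stretch was divided at position 110898730, with 156 genes past this boundary and 104 before it. These genes and this boundary were chosen by their measured changes, the levels in each clone against wild type, so every comparison of the clones below, including clone 2 against clone 1, is a description and carries no test.

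The cells were MDA-MB-231-D3H2LN, a luciferase-carrying, lymph node derived derivative of MDA-MB-231, a human mammary tumour line that lacks the oestrogen and progesterone receptors. JAG1 knockout clone 1 and JAG1 knockout clone 2 are each the progeny of a single cell picked after Cas9 protein and a pair of guide RNAs against 1 exon of JAG1, which encodes a Notch ligand, had been delivered. The wild-type cells are the parental line, which expresses JAG1, and each of the 3 groups has 3 libraries. A single-cell origin is stated for the clones only, and nothing in the labels says whether the 3 libraries of a group came from separate cultures, so the spread between them may be technical. All cells were grown untreated in the same serum-containing medium.

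The long arm of chromosome 10 carries several genes studied as tumour suppressors, and its outer part is lost in some tumour types. Genes that sit side by side on an arm need not share a function, but they are inherited together as a piece of DNA when a single cell founds a clone. MDA-MB-231 cells are aneuploid, and cells within the line can differ in the number of copies of a chromosome arm. DNA was not measured in these samples, and only RNA values are described.

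Total counts ran from 16890890 to 22456164 per library, and 16921 genes passed the filter on low counts. JAG1 had 2130, 1699 and 1657 counts in clone 1, 1230, 1406 and 1190 counts in clone 2 and 5069, 3803 and 3592 counts in wild type, so every knockout library was below every wild-type library while reads of the gene remained. Markers of the line (VIM, CD44, KRT8, KRT18 and KRT19) summed to 2250 to 2820 CPM (counts scaled to a common library total, with TMM factors) in clone 1, 3720 to 4610 CPM in clone 2 and 2660 to 3610 CPM in wild type. ESR1, PGR and CDH1, which this line is known to lack, summed to at most 1.65 CPM in any library. The 5 fibroblast markers summed to 26.9 to 30.3 CPM in clone 1, 17.0 to 21.4 CPM in clone 2 and 28.9 to 61.5 CPM in wild type, the 3 endothelial markers to 3.62 to 5.51, 2.13 to 3.01 and 2.19 to 4.44 CPM in the same order, and the 4 leukocyte markers to at most 0.523 CPM with CD3E at 0. The part of these marker levels in the results below was not tested. In bulk RNA, fewer cells with a transcript and less of it per cell cannot be told apart.

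Promoter sequences of 6 genes are shown before their values, because these genes mark the boundary or were called in both clones. They are RefSeq sequences of GRCh38.p14, 5′ to 3′ on the gene's own strand, from 250 bases before the RefSeq start to 50 bases after it. The part that matters is in capitals, which mark matches, on either strand, to GTGGGAA (the core that the Notch effector RBPJ binds), GGGCGG (the GC box), CCAAT or TATAAA, and matches of the same motif may overlap. BBIP1 counts as the last gene before the boundary because its first listed exon start is the boundary itself. Its body and its promoter window lie outward from there. SHOC2 is the first tested gene past the boundary. BBIP1 and SHOC2 are read in opposite directions, and their windows overlap each other. DCLRE1A, AFAP1L2, SHTN1 and NSMCE4A are the genes past the boundary that were called against wild type in clone 1 and also in clone 2.
BBIP1 (chr10:110919317-110919616, minus strand): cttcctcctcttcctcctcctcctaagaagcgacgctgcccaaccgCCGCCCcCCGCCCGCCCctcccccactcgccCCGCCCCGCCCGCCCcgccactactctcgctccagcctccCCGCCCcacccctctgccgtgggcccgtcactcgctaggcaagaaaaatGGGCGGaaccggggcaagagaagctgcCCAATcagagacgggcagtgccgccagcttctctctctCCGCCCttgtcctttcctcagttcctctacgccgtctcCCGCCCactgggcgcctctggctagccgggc
SHOC2 (chr10:110919120-110919419, plus strand): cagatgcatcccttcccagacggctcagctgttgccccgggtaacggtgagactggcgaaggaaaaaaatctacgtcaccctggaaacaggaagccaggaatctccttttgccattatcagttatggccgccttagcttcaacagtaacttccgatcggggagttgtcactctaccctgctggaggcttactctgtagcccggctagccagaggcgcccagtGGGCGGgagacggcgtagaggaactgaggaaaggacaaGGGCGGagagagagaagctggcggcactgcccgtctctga
DCLRE1A (chr10:113854033-113854332, minus strand): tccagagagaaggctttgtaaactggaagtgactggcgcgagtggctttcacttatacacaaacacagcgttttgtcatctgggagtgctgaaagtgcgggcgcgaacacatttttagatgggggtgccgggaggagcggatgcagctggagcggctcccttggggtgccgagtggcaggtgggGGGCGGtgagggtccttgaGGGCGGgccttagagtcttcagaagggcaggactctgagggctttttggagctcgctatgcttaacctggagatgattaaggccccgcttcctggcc
AFAP1L2 (chr10:114404453-114404752, minus strand): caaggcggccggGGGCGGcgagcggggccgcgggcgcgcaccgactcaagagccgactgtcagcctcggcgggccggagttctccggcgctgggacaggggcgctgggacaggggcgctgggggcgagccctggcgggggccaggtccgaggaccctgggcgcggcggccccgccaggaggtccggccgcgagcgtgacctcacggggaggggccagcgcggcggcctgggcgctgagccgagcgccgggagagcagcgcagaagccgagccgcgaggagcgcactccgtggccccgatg
SHTN1 (chr10:117005138-117005437, minus strand): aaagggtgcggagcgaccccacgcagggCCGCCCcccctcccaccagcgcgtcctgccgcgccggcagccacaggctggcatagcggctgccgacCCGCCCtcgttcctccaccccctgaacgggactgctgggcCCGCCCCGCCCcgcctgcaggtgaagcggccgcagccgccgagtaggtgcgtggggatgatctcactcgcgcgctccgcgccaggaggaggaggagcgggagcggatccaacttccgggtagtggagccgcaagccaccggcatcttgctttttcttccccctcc
NSMCE4A (chr10:121975168-121975467, minus strand): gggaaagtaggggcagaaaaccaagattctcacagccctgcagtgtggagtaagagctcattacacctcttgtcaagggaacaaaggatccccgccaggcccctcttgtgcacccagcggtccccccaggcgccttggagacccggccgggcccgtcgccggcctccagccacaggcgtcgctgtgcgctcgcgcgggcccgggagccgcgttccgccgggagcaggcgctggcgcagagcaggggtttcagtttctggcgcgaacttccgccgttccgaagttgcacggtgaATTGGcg
The BBIP1 window held 10 GC boxes and 1 CCAAT, and the SHOC2 window 2 GC boxes. The other windows held 2 GC boxes (DCLRE1A), 1 GC box (AFAP1L2), 4 GC boxes (SHTN1) and 1 CCAAT (NSMCE4A). None of the 6 windows held the RBPJ core or TATAAA in these letters.

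Over the wider set, 90 of the 156 genes past the boundary and 70 of the 104 before it had a promoter in the RefSeq table, which holds 35116 windows. The median GC content of these windows was 68.2% past the boundary, 63.3% before it and 58.7% over the whole table. At least 1 GC box stood in 61.1% of windows past the boundary, 64.3% before it and 45.0% of the table. The RBPJ core stood in 5 windows past the boundary (5.56%), in 3 before it (4.29%) and in 6.25% of the table. CCAAT was found in 32.2% of windows past the boundary, 50.0% before it and 34.6% of the table, and TATAAA in 11.1%, 7.14% and 11.5%.

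The outermost genes lay, in the median, above wild type in clone 1 and below it in clone 2. Each gene's change was taken as the log2 ratio of mean CPM + 0.5, a scale that understates the change of genes of low level. Past the boundary, the median log2 ratio to wild type was 0.20 in clone 1 (quartiles -0.06 and 0.50) and -0.27 in clone 2 (quartiles -0.48 and -0.10). With a pseudocount of 2 CPM these medians were 0.13 and -0.16, and a GC and length correction centred on mean log levels, added after seeing the data, gave -0.17 in clone 2. In clone 1, 108 of the 156 genes lay above wild type and 48 below, and in clone 2, 32 lay above and 123 below. The median over all 23589 rows of at least 10 counts was 0.02 in clone 1 and -0.03 in clone 2, and over the other 679 such genes of chromosome 10 it was also 0.02 and -0.03.

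Before the boundary the medians had the reverse signs. They were -0.12 in clone 1, with 41 of 104 genes above wild type and 63 below, and 0.10 in clone 2, with 63 above and 41 below. The clone 1 median was -0.06 with a pseudocount of 2 CPM and -0.05 with the correction centred on mean log levels. It was -0.08 with the GC and length correction that keeps the TMM scaling. Without wild type replicate 2, or with the boundary moved 1000000 bases outward, it was -0.07. The clone 2 median was 0.18 with the correction centred on mean log levels and 0.16 without wild type replicate 2. The median past the boundary minus the median before it was 0.33 in clone 1 and -0.36 in clone 2, and -0.58 for clone 2 against clone 1. Both clones are set against the same 3 wild-type libraries, so the 2 differences are not independent.

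**Figure D1:**
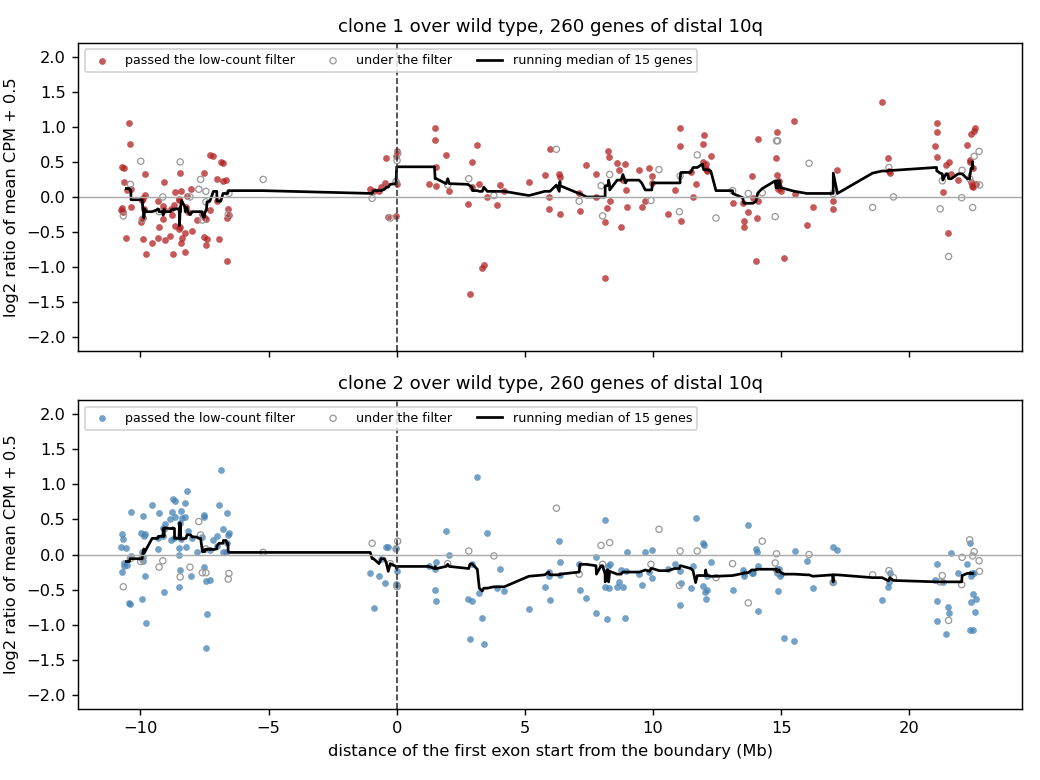
Log2 ratio of mean CPM + 0.5 to wild type (y axis) for each of the 260 genes. The x axis is the distance of the first listed exon start from the boundary in Mb. Clone 1 is in the upper panel and clone 2 in the lower one. Filled points passed the filter on low counts, open points did not, and the line is a running median of 15 genes; past the boundary it lies mostly above 0 in clone 1 and below 0 in clone 2, around the medians of 0.20 and -0.27.

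The pattern was present library by library. Past the boundary, the median log2 ratio of single libraries to wild type was 0.20, 0.21 and 0.19 in clone 1, -0.29, -0.29 and -0.31 in clone 2, and 0.00, -0.03 and 0.01 in wild type, where each wild-type library was set against the mean of the other 2. The 3 groups did not overlap, and the wild-type libraries spanned 0.04. Before the boundary the medians were -0.06, -0.17 and -0.10 in clone 1, 0.03, 0.16 and -0.02 in clone 2, and -0.07, 0.12 and -0.06 in wild type. There both clones overlapped the wild-type range, while each clone 2 library lay above the wild-type library of the same number. The difference of the 2 medians within a library was 0.26, 0.38 and 0.29 in clone 1, -0.32, -0.45 and -0.29 in clone 2, and 0.07, -0.15 and 0.07 in wild type, again without overlap of the groups.

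**Figure D2:**
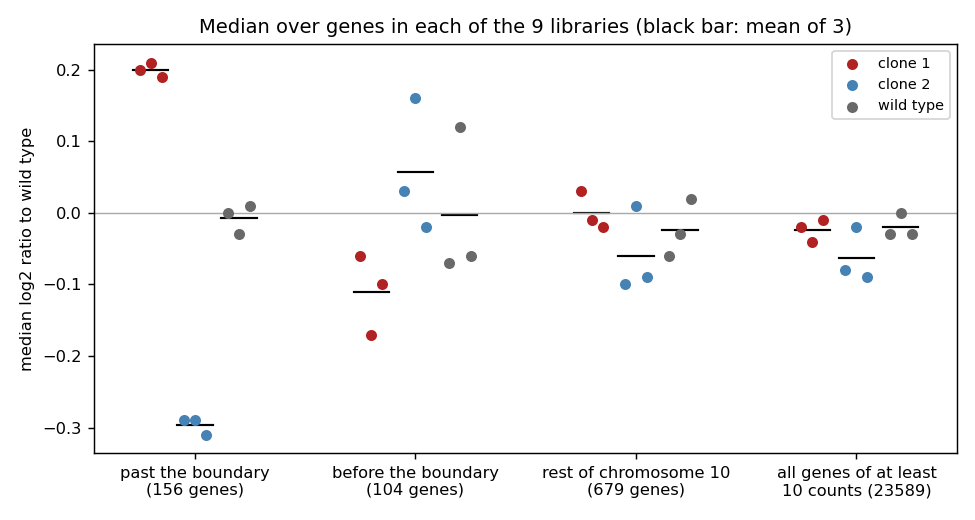
Median log2 ratio to wild type (y axis) in each of the 9 libraries for 4 sets of genes (x axis), with clone 1, clone 2 and wild type from left to right and a black bar at the mean of 3 libraries. Past the boundary the clone 1 libraries lie at 0.19 to 0.21 and the clone 2 libraries at -0.31 to -0.29, while the wild-type libraries lie at -0.03 to 0.01.

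Summed levels, which weight strongly expressed genes, gave the same order past the boundary. The 156 genes summed to 7278, 7188 and 6985 CPM in clone 1 (mean 7150 ± 150, SD, n = 3), 5123, 4745 and 4922 CPM in clone 2 (4930 ± 189) and 5720, 5654 and 5957 CPM in wild type (5777 ± 159). The clone 1 mean was 124% and the clone 2 mean 85.3% of wild type, and no library of one group lay within the range of another. The genes before the boundary summed to 4999 ± 647 CPM in clone 1, 7080 ± 900 CPM in clone 2 and 5994 ± 767 CPM in wild type (SD, n = 3 each). By replicate number, those sums were 6087, 7313 and 7841 CPM in clone 2 and 5109, 6407 and 6466 CPM in wild type, higher in clone 2 within each number. This order was not particular to the stretch, and also held over the rest of chromosome 10. All rows of at least 10 counts summed to 1162000, 1017000 and 1065000 CPM in clone 2 and 979100, 944800 and 1008000 CPM in wild type. The sums before the boundary include SCD, the stearoyl-CoA desaturase gene, which had 302, 1421 and 1551 CPM in clone 1, 708, 2082 and 2465 CPM in clone 2 and 921, 2036 and 1958 CPM in wild type. SCD was lowest in the library numbered 1 of each group, and its groups overlapped.

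In windows of at most 5 Mb, the change of sign fell before the boundary. The 90 genes from 100 to 105 Mb had median log2 ratios of -0.16 in clone 1 and 0.12 in clone 2. The 4 genes from 105 to 110 Mb had 0.10 and -0.12, and the 10 genes from 110 Mb to the boundary 0.17 and -0.10, the signs of the outer stretch. Past the boundary the 24 genes up to 115 Mb had 0.17 in clone 1 and -0.20 in clone 2, and the 32 genes up to 120 Mb had 0.13 and -0.29. The next windows had 0.18 and -0.25 (41 genes) and 0.12 and -0.24 (23 genes). The outermost window, from 130 to 135 Mb, had the widest separation, with 0.37 in clone 1 and -0.35 in clone 2 over 36 genes. After a correction for GC content and exon length these medians were between 0.10 and 0.33 in clone 1 and between -0.35 and -0.19 in clone 2 past the boundary.

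**Figure D3:**
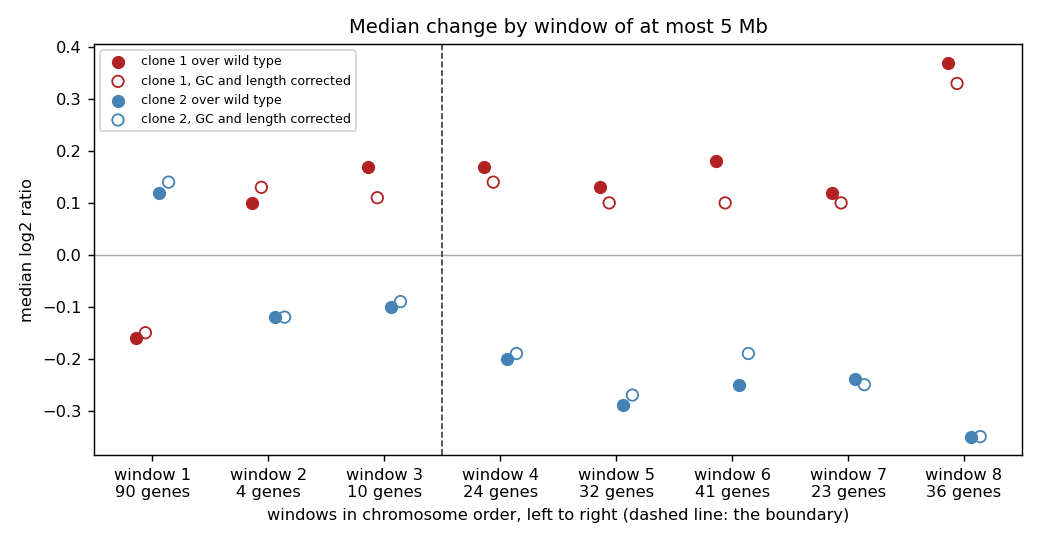
Median log2 ratio to wild type (y axis) of clone 1 and clone 2 in 8 windows in chromosome order (x axis), with the number of genes under each and a dashed line at the boundary. Filled points are the ratios as reported and open points those after the GC and length correction; clone 1 is negative and clone 2 positive in the first window (-0.16 and 0.12), and the signs are reversed in all windows to its right.

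The genes beside the boundary show how the 2 stretches meet. PDCD4, a translation inhibitor (chromosome 10, 110871795 to 110900006, plus strand), had 10.5, 17.0 and 16.9 CPM in clone 1, 11.8, 23.8 and 22.1 CPM in clone 2 and 13.1, 23.7 and 16.9 CPM in wild type, and its groups overlapped throughout. BBIP1, a subunit of the ciliary BBSome complex (110898730 to 110919274, minus strand), whose first listed exon start is the boundary itself, had 18.4, 19.6 and 27.7 CPM in clone 1, 12.9, 10.8 and 6.26 CPM in clone 2 and 13.5, 15.3 and 12.5 CPM in wild type. All clone 1 values of BBIP1 lay above wild type, and clone 2 overlapped it at 1 library.
SMC3, a cohesin subunit, had 98.9, 96.0 and 92.3 CPM in clone 1, 94.2, 134 and 153 CPM in clone 2 and 86.5, 112 and 155 CPM in wild type, and PDCD4-AS1, an antisense transcript of PDCD4, averaged 1.40 ± 0.669 CPM in clone 1, 0.455 ± 0.137 CPM in clone 2 and 0.776 ± 0.0712 CPM in wild type (SD, n = 3 each). ADD3, an adducin of the membrane skeleton that lies further in, had 64.9, 101 and 83.0 CPM in clone 1, 31.1, 58.2 and 47.8 CPM in clone 2 and 61.4, 95.1 and 77.1 CPM in wild type, so that clone 2 alone stood below wild type. The first row past the boundary, RP11-348N5.7, had 63 counts in all and did not pass the filter. SHOC2, the scaffold that joins RAS to RAF (110919547 to 111013667, plus strand), had 59.4, 72.7 and 58.8 CPM in clone 1, 43.2, 50.1 and 49.1 CPM in clone 2 and 56.0, 51.1 and 61.1 CPM in wild type. Its clone 2 values lay below every wild-type value and its clone 1 values overlapped wild type. GPAM, which makes the first intermediate of glycerolipid synthesis, overlapped between all groups, with log2 fold changes of 0.19 (SE 0.28) in clone 1 and -0.18 (SE 0.28) in clone 2. RP11-324O2.3, which shares exon bases with ACSL5, averaged 0.989 ± 0.364 CPM in clone 1, 0.161 ± 0.280 CPM in clone 2 and 0.257 ± 0.206 CPM in wild type.

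Calls on single genes came from 1 edgeR quasi-likelihood fit over all 16921 tested genes, at a Benjamini-Hochberg adjusted p under 0.05. Of the 119 tested genes past the boundary, clone 1 had 10 called higher and 1 called lower, where 1.41% of all tested genes were called higher and 4.10% lower. Clone 2 had 0 called higher and 16 called lower past the boundary, where 3.21% of all tested genes were called higher and 2.75% lower. For the 0 called higher in clone 2, 3 genes had an unadjusted p under 0.05 in edgeR, and limma-voom called 0 and DESeq2 1. The rule used these contrasts, so nothing is read from the counts. With replicate number added as a block, the fit called 34 genes past the boundary in clone 2, 3 higher and 31 lower. In clone 1 the count of 11 was 6, 4 and 2 without clone 1 replicates 1, 2 and 3, 17 without clone 2 replicate 1, and 5 and 3 without wild type replicates 2 and 3. In clone 2 the count of 16 was 4 without clone 2 replicate 3, 10 without clone 1 replicate 2, and 7 and 6 without wild type replicates 1 and 2. Between clone 2 and clone 1, 3 genes past the boundary were called higher and 54 lower, where 19.8% and 14.1% of all tested genes were called so. The clones are set against the same wild-type libraries. The call on NSMCE4A in each clone, on PPP2R2D in clone 1 and on DCLRE1A, FAM45A and ADAM8 in clone 2 was kept in all 14 alternative fits. The calls in clone 1 on BUB3, AFAP1L2 and BTRC were each lost in 5 of these fits, all of which left out 1 library of clone 1 or wild type.

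Counted by libraries that do not overlap, the whole set of 156 genes can be used. In clone 1, 47 genes past the boundary (30.1%) had all 3 libraries above wild type and 9 (5.77%) had all 3 below, where 11.5% and 13.3% of all rows of at least 10 counts did so. In clone 2, 3 genes (1.92%) had all 3 libraries above and 43 (27.6%) all 3 below, where 10.9% and 11.2% of all rows did so. Before the boundary, clone 1 had 11 of 104 genes (10.6%) with all 3 libraries above wild type and 19 (18.3%) with all 3 below, and clone 2 had 23 (22.1%) above and 7 (6.73%) below. Most tested genes past the boundary lay within 2-fold of wild type, 113 of 119 in clone 1 and 111 of 119 in clone 2.

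Among the genes past the boundary, the list of cell division and genome maintenance held 10, of which 9 were tested. In this group 4 were called higher in clone 1 and 2 called lower in clone 2, and the median log2 ratios were 0.31 and -0.22 (0.20 and -0.27 over all genes past the boundary). Over all tested genes, 1.41% were called higher and 4.10% lower in clone 1, and 3.21% higher and 2.75% lower in clone 2, and the counts in this and the following lists stand beside these shares with nothing read from them. NSMCE4A, a subunit of the SMC5-SMC6 complex that acts in DNA repair (chromosome 10, 121957088 to 121975217, minus strand), had 69.9, 75.8 and 79.8 CPM in clone 1, 29.3, 28.5 and 24.9 CPM in clone 2 and 46.6, 45.8 and 44.4 CPM in wild type. The 3 groups stood well apart, and the log2 fold changes were 0.72 (SE 0.13) in clone 1 and -0.73 (SE 0.13) in clone 2. DCLRE1A, a nuclease that repairs DNA crosslinks (113834725 to 113854383, minus strand), had 58.8, 73.6 and 58.1 CPM in clone 1, 27.9, 26.8 and 29.6 CPM in clone 2 and 44.5, 41.1 and 48.8 CPM in wild type. Its 3 groups did not overlap either, with log2 fold changes of 0.50 (SE 0.14) in clone 1 and -0.67 (SE 0.14) in clone 2, and the call in clone 1 was lost in 8 of 14 alternative fits. BUB3, a component of the spindle checkpoint (123154277 to 123170467, plus strand), had 575, 510.1 and 500.1 CPM in clone 1, 367, 302 and 303 CPM in clone 2 and 392, 302 and 358 CPM in wild type. Clone 1 alone stood above wild type, by a log2 fold change of 0.59 (SE 0.16), and the change in clone 2 was -0.11 (SE 0.16). MKI67, which encodes the proliferation antigen Ki-67 and is named here for its wide use, had 489, 430.2 and 535 CPM in clone 1, 387, 343 and 443 CPM in clone 2 and 334, 351 and 428 CPM in wild type. Its clone 1 libraries all lay above wild type, narrowly in replicate 2, while clone 2 overlapped it, and it was called in neither clone.

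Mitochondrial and metabolic enzymes formed the largest of the lists past the boundary, with 15 genes, all tested. In clone 1, 3 were called higher and 0 lower, in clone 2, 0 were called higher and 1 lower, and the median log2 ratios were 0.34 and -0.30. For both of these counts of 0, edgeR had 0 genes at an unadjusted p under 0.05, and limma-voom and DESeq2 called 0. ACSL5, which activates fatty acids with coenzyme A (112374018 to 112428380, plus strand), had 118, 127 and 129 CPM in clone 1, 64.1, 42.2 and 42.4 CPM in clone 2 and 75.1, 63.3 and 74.2 CPM in wild type. Clone 1 stood above wild type in every library and clone 2 overlapped it at 1 library, with log2 fold changes of 0.82 (SE 0.16) in clone 1 and -0.52 (SE 0.16) in clone 2. PRDX3, the mitochondrial peroxiredoxin (119167703 to 119178833, minus strand), had 759.6, 732 and 775 CPM in clone 1, 463, 342 and 288 CPM in clone 2 and 519.6, 529 and 473 CPM in wild type. Its 3 groups did not overlap, although it was called in neither clone against wild type, at log2 fold changes of 0.57 (SE 0.18) in clone 1 and -0.48 (SE 0.18) in clone 2. BNIP3, a hypoxia-induced mitophagy receptor (131966455 to 131982013, minus strand), had 355, 591 and 569.8 CPM in clone 1, 210.4, 271 and 240.0 CPM in clone 2 and 192, 341 and 260.3 CPM in wild type. Clone 1 was above every wild-type library, narrowly in replicate 1, and clone 2 overlapped wild type, with log2 fold changes of 0.93 (SE 0.22) in clone 1 and -0.14 (SE 0.22) in clone 2. MTG1, a GTPase of mitochondrial ribosome assembly, had 15.1, 10.8 and 17.1 CPM in clone 1, 3.90, 7.31 and 3.18 CPM in clone 2 and 12.3, 12.9 and 6.89 CPM in wild type. It was called lower in clone 2, with log2 fold changes of 0.42 (SE 0.30) in clone 1 and -1.15 (SE 0.32) in clone 2, yet its libraries overlapped wild type and its exons share bases with SPRN. That call was lost in 7 of 14 alternative fits, each of which left out 1 library. CYP2E1, a cytochrome P450, averaged 0.727 ± 0.369 CPM in clone 1, 0.194 ± 0.336 CPM in clone 2 and 0.579 ± 0.0648 CPM in wild type, and its groups overlapped.

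Per length of exon, the strongest genes past the boundary in wild type were PRDX3, RGS10, ECHS1, OAT and HTRA1. PRDX3 had 221 RPKM in clone 1, 107 RPKM in clone 2 and 149 RPKM in wild type (means of 3). RGS10, which shortens the signal of G proteins, had 168, 85.8 and 119 RPKM, and ECHS1, an enzyme of fatty acid oxidation, had 121, 89.6 and 108 RPKM in the same order. OAT, the ornithine aminotransferase, had 50.9, 46.3 and 54.1 RPKM. HTRA1, a secreted serine protease, had 50.5, 45.0 and 50.5 RPKM. RGS10, ECHS1 and HTRA1 overlapped wild type in both clones, while OAT lay below wild type in all clone 2 libraries.

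Receptors and signalling genes numbered 13, all tested, with 1 called higher in clone 1, 1 called lower in clone 2 and median log2 ratios of 0.18 and -0.37. PPP2R2D, a regulatory subunit of the phosphatase PP2A (131900644 to 131959834, plus strand), had 80.7, 69.3 and 76.2 CPM in clone 1, 35.2, 38.1 and 32.6 CPM in clone 2 and 49.5, 48.5 and 39.2 CPM in wild type. All groups were apart, with log2 fold changes of 0.72 (SE 0.14) in clone 1 and -0.37 (SE 0.14) in clone 2, and the call in clone 1 was kept in all 14 alternative fits. DOCK1, an exchange factor that activates Rac, had 49.1, 45.4 and 43.5 CPM in clone 1, 48.2, 54.5 and 68.1 CPM in clone 2 and 51.4, 58.9 and 72.2 CPM in wild type. Its clone 1 libraries lay below wild type, against the direction of its neighbours, with a log2 fold change of -0.40 (SE 0.16). ADRB1, the beta-1 adrenergic receptor, had 0.155, 0.903 and 0.501 CPM in clone 1, 0.680, 0.533 and 1.23 CPM in clone 2 and 0.0972, 0.0846 and 0.151 CPM in wild type. All libraries of both clones lay above wild type, and it was called in neither. Clone 1 replicate 1 had 3 counts, against 2, 2 and 3 in wild type, so its place above rests on depth scaling. GFRA1, the co-receptor of the growth factor GDNF, had 2 counts in all of clone 2 and 27 in all of wild type, a depth-scaled ratio of wild type over clone 2 of 12.2 with a 95% counting interval of 3.06 to 106. That interval leaves out the spread between libraries, and GFRA1 was called in neither clone.

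Transcription and RNA factors numbered 13, of which 12 were tested, with 0 called in clone 1 and 2 called lower in clone 2, and medians of 0.17 and -0.21. In clone 1, edgeR had 3 of them above and 1 below wild type at an unadjusted p under 0.05, limma-voom called 0 and DESeq2 called 1. EBF3, a transcription factor of the early B cell factor family (129835283 to 129963841, minus strand), had 2.69, 0.808 and 1.00 CPM in clone 1, 0, 0 and 0 CPM in clone 2 and 0.340, 0.212 and 0.302 CPM in wild type. It had 0 counts in clone 2 against 18 in wild type, which is at least 5.42-fold lower when the group's sum is set to a floor of 3 counts. Its call in clone 2 was lost in 9 of 14 alternative fits. IKZF5, an Ikaros family zinc finger protein, had 57.3, 58.3 and 45.5 CPM in clone 1, 25.6, 33.5 and 28.0 CPM in clone 2 and 41.7, 36.9 and 45.3 CPM in wild type. The 3 groups were apart, though clone 1 replicate 3 lay only narrowly above wild type, and neither clone was called. PWWP2B, a PWWP domain protein of chromatin, had 12.8, 9.89 and 9.80 CPM in clone 1, 9.09, 8.47 and 9.92 CPM in clone 2 and 13.6, 16.5 and 17.1 CPM in wild type. Both clones lay below wild type, with log2 fold changes of -0.54 (SE 0.19) in clone 1 and -0.78 (SE 0.19) in clone 2, and its call in clone 2 was lost after the GC and length correction and in 4 other fits. TCF7L2, the WNT pathway factor, is named for its wide use, and with 23.7, 18.7 and 23.3 CPM in clone 1, 17.4, 20.2 and 24.3 CPM in clone 2 and 21.0, 18.4 and 22.4 CPM in wild type it overlapped between all groups.

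Genes of the cytoskeleton and membrane traffic numbered 11, all tested, with 1 called higher and 1 lower in clone 1, 2 called lower in clone 2, and medians of 0.05 and -0.22. SHTN1, which links actin to adhesion molecules in growing axons (116881482 to 117126586, minus strand), had 41.9, 34.9 and 46.5 CPM in clone 1, 13.8, 17.6 and 16.5 CPM in clone 2 and 22.3, 29.8 and 24.2 CPM in wild type. Its 3 groups were apart, with log2 fold changes of 0.69 (SE 0.17) in clone 1 and -0.67 (SE 0.17) in clone 2. The call on SHTN1 was lost in 4 of 14 alternative fits in clone 1 and in 3 of 14 in clone 2. AFAP1L2, an adaptor that binds actin filaments and signals through Src (114294824 to 114404756, minus strand), had 34.4, 22.0 and 14.2 CPM in clone 1, 17.8, 21.9 and 17.1 CPM in clone 2 and 52.4, 48.0 and 39.7 CPM in wild type. Both clones lay below wild type, with log2 fold changes of -0.99 (SE 0.24) in clone 1 and -1.30 (SE 0.25) in clone 2, so that in clone 1 it went against most genes around it. PLEKHA1, which binds a phosphoinositide at the membrane, had 44.8, 44.9 and 48.1 CPM in clone 1, 24.1, 29.0 and 24.0 CPM in clone 2 and 33.5, 39.6 and 35.0 CPM in wild type, with the 3 groups apart and no call against wild type. BAG3, a co-chaperone of HSP70, had 89.8, 88.2 and 82.4 CPM in clone 1, 75.8, 94.5 and 131 CPM in clone 2 and 95.9, 119 and 137 CPM in wild type, with clone 1 below every wild-type library.

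Secreted and surface proteases and matrix genes numbered 8, of which 7 were tested, with 0 called in clone 1, 2 called lower in clone 2, and medians of 0.09 and -0.37. In clone 1, edgeR had 1 above and 2 below wild type at an unadjusted p under 0.05, limma-voom called 0 and DESeq2 called 1. ADAM8, a surface metalloprotease (133262403 to 133276868, minus strand), had 223, 254 and 260.2 CPM in clone 1, 79.7, 95.2 and 72.0 CPM in clone 2 and 172, 194 and 156 CPM in wild type. The 3 groups were apart, with log2 fold changes of 0.50 (SE 0.15) in clone 1 and -1.08 (SE 0.15) in clone 2, and clone 2 was called in all 14 alternative fits. ADAM12, another member of the same protease family, had 3.16, 1.81 and 1.28 CPM in clone 1, 2.17, 1.02 and 1.52 CPM in clone 2 and 4.96, 4.49 and 3.22 CPM in wild type. Both clones lay below wild type in all libraries, and the call in clone 2 was lost in 5 of 14 alternative fits. VWA2, a secreted protein of von Willebrand factor A domains, averaged 0.308 ± 0.454 CPM in clone 1, 0.374 ± 0.0881 CPM in clone 2 and 1.13 ± 0.205 CPM in wild type (SD, n = 3 each), and was called in neither.

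Several of the most changed genes belonged to no list. LRRC27, a leucine-rich repeat protein, had 10.2, 8.51 and 10.2 CPM in clone 1, 1.92, 3.87 and 2.80 CPM in clone 2 and 6.17, 7.49 and 7.04 CPM in wild type. Its 3 groups were apart, and it was called lower in clone 2, by a log2 fold change of -1.26 (SE 0.27). FAM45A, a DENN domain protein, had 29.6, 35.8 and 39.1 CPM in clone 1, 16.6, 21.3 and 23.0 CPM in clone 2 and 33.3, 42.1 and 41.1 CPM in wild type, and was called lower in clone 2 with clone 1 overlapping wild type. SPRN, a prion-like protein, had 9.06, 8.37 and 9.63 CPM in clone 1, 1.92, 5.42 and 3.61 CPM in clone 2 and 6.32, 3.38 and 3.72 CPM in wild type, and SCART1 had 12.1, 8.65 and 9.47 CPM in clone 1, 2.60, 3.29 and 1.76 CPM in clone 2 and 5.78, 6.43 and 2.41 CPM in wild type. Among protein-coding genes of at least 5 CPM whose libraries did not overlap wild type, they were in the 6 largest increases in clone 1, and neither was called against wild type. Their log2 fold changes were 1.01 (SE 0.33) in clone 1 and -0.28 (SE 0.34) in clone 2 for SPRN, and 1.04 (SE 0.33) in clone 1 and -0.94 (SE 0.35) in clone 2 for SCART1. PHACTR2P1, a pseudogene, had 2 counts in clone 2 against 32 in wild type, a depth-scaled ratio of wild type over clone 2 of 14.4 with a 95% counting interval of 3.69 to 124. EIF3A, a subunit of the translation initiation factor eIF3, and FAM53B were, with RP11-298J20.4, the genes past the boundary called higher in clone 2 than in clone 1. EIF3A had 226, 190.1 and 188 CPM in clone 1, 309, 346 and 427 CPM in clone 2 and 213, 221 and 338 CPM in wild type, so clone 2 was above clone 1 while overlapping wild type. The genes past the boundary thus did not all lie on the same side of wild type.

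**Figure D4:**
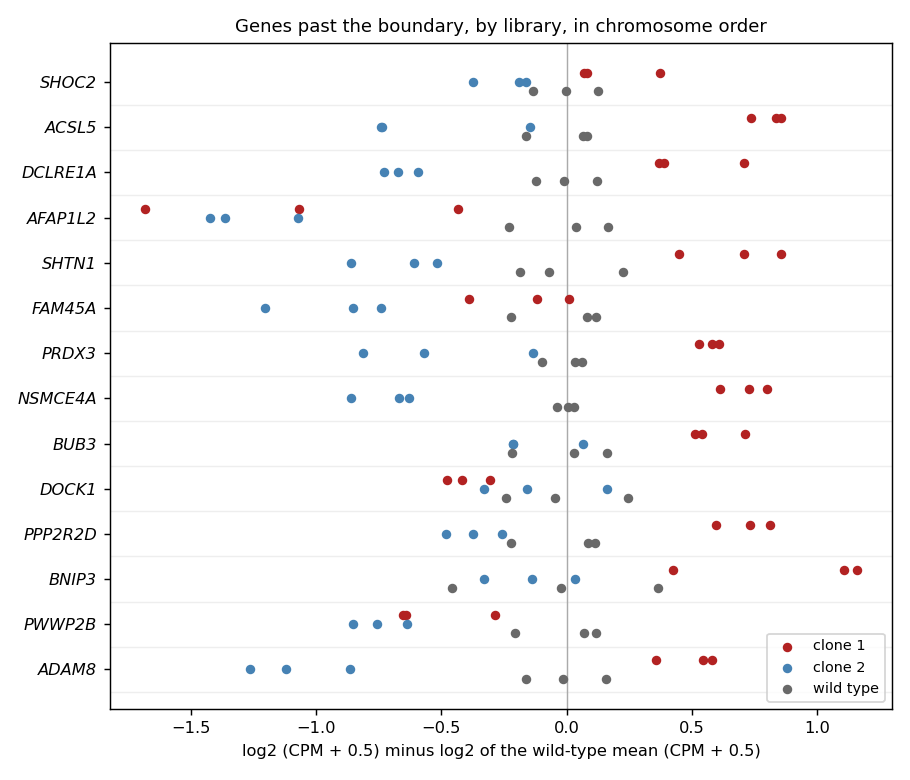
Log2 of CPM + 0.5 relative to the wild-type mean (x axis) in each library for 14 genes past the boundary, in chromosome order from top to bottom, with clone 1, clone 2 and wild type from the upper to the lower points of each row. NSMCE4A, DCLRE1A, SHTN1, PRDX3, PPP2R2D and ADAM8 have clone 1 to the right and clone 2 to the left of all wild-type points, while AFAP1L2 and PWWP2B have both clones to the left.

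Calls before the boundary are likewise set beside the shares over all tested genes, with nothing read from the counts. Of 85 tested genes, 0 were called higher and 7 lower in clone 1 (all tested genes, 1.41% and 4.10%), and 10 were called higher and 1 lower in clone 2 (3.21% and 2.75%). For the 0 called higher in clone 1, 6 genes had an unadjusted p under 0.05 in edgeR, and limma-voom and DESeq2 called 0. Between clone 2 and clone 1, 31 were called higher and 8 lower (19.8% and 14.1%). The genes called lower in clone 1 were BTRC, C10orf76, HPS6, NOLC1, ACTR1A, SUFU and RP11-47A8.5. In the list of NF-kappaB, WNT and Hedgehog signalling, with 10 genes and 9 tested, 2 were called lower in clone 1 and 3 higher in clone 2, and the median log2 ratios were -0.29 and 0.40. BTRC, the F-box protein that marks beta-catenin and the NF-kappaB inhibitor for destruction (101354033 to 101557321, plus strand), had 20.3, 19.9 and 19.9 CPM in clone 1, 48.7, 49.5 and 58.8 CPM in clone 2 and 24.9, 30.8 and 39.9 CPM in wild type. Its 3 groups were apart, with log2 fold changes of -0.67 (SE 0.17) in clone 1 and 0.72 (SE 0.17) in clone 2. TRIM8, a ubiquitin ligase, had 84.0, 100.4 and 89.1 CPM in clone 1, 194, 203 and 249 CPM in clone 2 and 109.9, 135 and 144 CPM in wild type, and the groups were apart in the same order. WNT8B, a WNT ligand, went the other way at a low level, with 4.51, 3.14 and 4.18 CPM in clone 1, 0.433, 1.45 and 0.569 CPM in clone 2 and 1.55, 2.58 and 0.754 CPM in wild type.

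Among 12 genes of chromatin, RNA and the nucleolus before the boundary, all tested, 1 was called lower in clone 1 and 1 higher in clone 2, with medians of -0.26 and 0.23. NOLC1, a phosphoprotein of the nucleolus (102152176 to 102163871, plus strand), was that gene in both, with 159, 144 and 122 CPM in clone 1, 391, 392 and 505 CPM in clone 2 and 219, 200.0 and 327 CPM in wild type. Its groups were apart, and its log2 fold changes were -0.81 (SE 0.19) in clone 1 and 0.79 (SE 0.19) in clone 2. The call on NOLC1 was lost in 3 of 14 alternative fits in each clone. TAF5, a subunit of the general factor TFIID, and PDCD11, which acts in ribosomal RNA processing, had log2 fold changes of -0.58 (SE 0.21) in clone 1 and 0.55 (SE 0.21) in clone 2 and of -0.29 (SE 0.18) in clone 1 and 0.56 (SE 0.18) in clone 2, and neither was called. STN1, a telomere capping protein, had 40.5, 46.3 and 42.3 CPM in clone 1, 55.5, 37.1 and 37.4 CPM in clone 2 and 37.9, 36.5 and 33.7 CPM in wild type. Its clone 1 libraries all lay above wild type and its clone 2 libraries overlapped it, with log2 fold changes of 0.26 (SE 0.16) in clone 1 and 0.26 (SE 0.16) in clone 2.

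Among 10 genes of the cytoskeleton, traffic and adhesion before the boundary, 1 was called lower in clone 1 and 3 higher in clone 2, with medians of -0.16 and 0.20. ACTR1A, the actin-related protein of the dynactin complex, had 116, 137 and 107 CPM in clone 1, 280.2, 278 and 314 CPM in clone 2 and 173, 182 and 211 CPM in wild type, and GBF1, which activates Arf GTPases at the Golgi, had 102, 91.2 and 94.2 CPM in clone 1, 197, 207 and 251 CPM in clone 2 and 107, 134 and 143 CPM in wild type. Both had their 3 groups apart, with clone 1 lowest and clone 2 highest. The call on ACTR1A was lost in 4 of 14 alternative fits in clone 1 and in 3 of 14 in clone 2. COL17A1, a hemidesmosomal collagen, had 11.4, 7.99 and 5.35 CPM in clone 1, 14.7, 12.3 and 14.3 CPM in clone 2 and 6.61, 3.26 and 7.24 CPM in wild type and was called higher in clone 2. SEC31B, a coat protein of transport vesicles, went against this order, with 40.8, 40.3 and 49.1 CPM in clone 1, 10.8, 25.4 and 10.3 CPM in clone 2 and 29.5, 31.2 and 15.4 CPM in wild type.

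The 13 mitochondrial and metabolic genes before the boundary, of which 12 were tested, had 0 called in clone 1 and 2 called higher in clone 2, with medians of -0.11 and 0.10. In clone 1, edgeR had 2 of them below wild type at an unadjusted p under 0.05, limma-voom called 0 and DESeq2 called 1. SFXN2, a mitochondrial sideroflexin, had 24.9, 19.6 and 20.1 CPM in clone 1, 44.5, 35.7 and 39.7 CPM in clone 2 and 24.8, 15.1 and 23.7 CPM in wild type, with only clone 2 apart from wild type. TWNK, the helicase of mitochondrial DNA, had 31.4, 20.8 and 22.2 CPM in clone 1, 52.6, 50.2 and 63.7 CPM in clone 2 and 39.7, 29.7 and 44.3 CPM in wild type, and GSTO2, a glutathione transferase, overlapped wild type in both clones. CALHM3, a calcium homeostasis modulator, was the 1 gene before the boundary called lower in clone 2, with 2.90, 8.46 and 6.85 CPM in clone 1, 3.15, 4.99 and 2.99 CPM in clone 2 and 7.53, 14.9 and 7.74 CPM in wild type. That call was lost in 6 of 14 alternative fits, limma-voom among them. Its relative CALHM2 lay below wild type in all clone 2 libraries and overlapped it in clone 1, was called in neither, and had log2 fold changes of -0.32 (SE 0.17) in clone 1 and -0.38 (SE 0.17) in clone 2.

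Gene type and base composition, which the choice of genes did not use, were also set side by side. Protein-coding genes made up 64.7% of the genes past the boundary, 76.0% of those before it and 64.6% of all rows of at least 10 counts. The median GC content of the gene models was 47.2% past the boundary, 51.4% before it and 48.9% over all such rows. The median wild-type level was 4.62 CPM past the boundary, 17.5 CPM before it and 3.75 CPM over all such rows. Past the boundary, the 101 protein-coding genes had medians of 0.18 in clone 1 and -0.30 in clone 2, and the other 55 rows 0.32 and -0.22, so both kinds had the same signs.

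Level moved with the change over the whole table. Spearman's rho between the wild-type level and the log2 fold change was -0.27 in clone 1 and 0.30 in clone 2 over the 16921 tested genes. It was -0.32 and 0.34 over the 85 tested genes before the boundary, and -0.13 and 0.09 over the 119 past it. These are correlations across genes, which share libraries and depth and are not independent replicates, and the wild-type values enter both measures. The part of expression level in the medians was not tested.

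At the edges of the rule, ALDOAP2, RP11-57H14.3 and FGF8 were kept with 10 counts in all, and SYCE1, RPS10P18, RPS26P39 and RP11-57H14.2 were left out with 9. ERLIN1, whose first listed exon start is 100150094, was the first gene inside the start minimum, and DNMBP-AS1, at 99927010, the last outside it. ERLIN1 had 3333, 3152 and 2658 counts in clone 1, 3739, 3529 and 3737 in clone 2 and 4429, 3147 and 3760 in wild type. MGMT, which encodes the enzyme that removes alkyl groups from guanine, was near silent, with 3 counts in clone 1 replicate 1, 8 in wild type replicate 2 and 0 in the other libraries. Of the 260 genes, 101 share exon bases with another listed gene, 87 of them tested, and where the counting ignored strand, reads of such pairs cannot be told apart. The strand setting is not given in the sources used here. Among the genes described these include PDCD4 with BBIP1, ACSL5 with ZDHHC6, SHTN1 with ENO4, IKZF5 with PSTK, TWNK with MRPL43 and NSMCE4A, EBF3 and DOCK1 with rows of RP11 names.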

How the data were processed

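Bulk RNA was sequenced from 9 libraries in 3 groups. Both tables that the authors deposited hold unnormalised counts for each gene, 1 table per clone, with identical wild-type columns that were used once. The build was GRCh38, per the submitters' processing notes, which also list DESeq2, featureCounts, Subread and STAR. No tool version, gene annotation or strandedness is given in the sources used here. All sample columns were mapped.

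Counts were tested with edgeR 4.0.16 in R 4.3.3, with TMM scaling, filterByExpr with a minimum count of 10, and a robust quasi-likelihood fit of 3 groups (6 residual degrees of freedom, biological coefficient of variation 20.3%). P-values were Benjamini-Hochberg adjusted over 16921 genes and called under 0.05. The script was tested on simulated data. CPM values use TMM-scaled totals, RPKM values divide them by the listed exon length, and log2 ratios use a pseudocount of 0.5 CPM. Intervals and floors cover counting error only, since reads were counted without molecular identifiers. Replicates differed by more than sampling noise (chi-square per gene 17 to 55.5), so none was merged. GENCODE release 29 gave types and GC content for 207 genes by symbol and 50 by position, with 80% overlap, and 3 had no match.

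Same-numbered libraries of clone 2 and wild type deviated together from their group means (correlations 0.223, 0.269 and 0.246). Some of their values are therefore also compared by replicate number. The main calls and fold changes come from a fit without pairing, in which group was the only factor. As an alternative, replicate number was added as a block over all groups. The pairing comes from the data and the replicate numbers, not from a stated batch. Clone 1 and wild type gave 0.245, 0.0825 and -0.0965 and were not taken as paired, although the block included clone 1.

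The members and lists were chosen with earlier results of these data known. Genes named were the last 4 tested before and first 4 past the boundary, the 6 largest changes each way per clone past it and 3 each way before it (protein-coding, at least 5 CPM, libraries not overlapping), up to 3 per list, those at each threshold, and the 5 strongest in wild type. Genes named outside this are said to be so or appear in counts of calls, and the values of a few genes are not reported here. Alternatives changed normalisation, filter, tool, block, GC and length correction, pseudocount, boundary and libraries. DESeq2 1.42.0 and limma 3.58.1 were among them.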

Additional observations from a re-analysis of the deposited data

Results flagged for a closer look

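The median log2 ratio past the boundary was 0.20 in clone 1 and -0.27 in clone 2, with every clone 1 library above and every clone 2 library below the wild-type libraries. Some of the named genes had all libraries of one clone above and all libraries of the other below the wild-type libraries. The difference between the clones' changes is the comparison of clone 2 with clone 1 in the same fit, and each gene below is among those called there. Because the genes were chosen with both contrasts known, and both share the wild-type libraries, these calls are a description. The difference of the medians was not tested.

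Past the boundary these genes had the following log2 fold changes against wild type, all higher in clone 1 and lower in clone 2. NSMCE4A had 0.72 in clone 1 and -0.73 in clone 2, SHTN1 0.69 and -0.67, DCLRE1A 0.50 and -0.67, and PRDX3 0.57 and -0.48. PPP2R2D had 0.72 in clone 1 and -0.37 in clone 2, ADAM8 0.50 and -1.08, and LRRC27 0.49 and -1.26. PLEKHA1 had 0.35 in clone 1 and -0.49 in clone 2, and IKZF5, only narrowly apart from wild type in clone 1, had 0.38 and -0.51. EBF3 had fitted values of 2.38 and -5.53, and the second depends on the prior count because clone 2 had 0 counts.

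Before the boundary, the order was the reverse for 5 of the named genes. BTRC had -0.67 in clone 1 and 0.72 in clone 2, NOLC1 -0.81 and 0.79, ACTR1A -0.65 and 0.62, TRIM8 -0.51 and 0.73, and GBF1 -0.42 and 0.77. PDCD4-AS1, close to the boundary, had 0.84 in clone 1 and -0.75 in clone 2.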

How the results depend on the processing

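The differences of the medians did not change sign under any alternative run for them. No called fold change of a named gene changed sign in the 14 alternative fits examined for it. Named genes were not compared in the fit without the filter or the fit of the 6 libraries compared. Nor were they compared with the block and the correction together, or with the correction centred on mean log levels. Fold changes that were not called changed sign without 1 library for ADD3, CYP2E1, GFRA1, GSTO2 and SFXN2 in clone 1, BNIP3, DOCK1, HTRA1, PDCD4, RP11-324O2.3, SMC3 and SPRN in clone 2, and GPAM in both clones. The split of calls over all genes in clone 2 against wild type also turned. It was 543 higher and 465 lower, and became 470 and 488 with RLE size factors, 687 and 976 without the filter on low counts, and 160 and 256 in a fit of the 6 libraries compared. More genes were lower than higher also without any 1 of the clone 1 libraries, clone 2 replicate 2 or 3, or wild type replicate 1 or 2, down to 62 higher and 176 lower without the last. Genes called against wild type numbered 933 in clone 1 and 1008 in clone 2. They were 1512 and 1663 without the filter on low counts, 2322 and 2699 with the replicate block, and 2248 and 2578 with the block and the GC and length correction. In clone 2 they were 416 in a fit of the 6 libraries compared and 1653 with DESeq2. Genes called past the boundary numbered 11 in clone 1 and 16 in clone 2. They were 17 and 28 without the filter, 22 and 34 with the block, 22 and 31 with the block and the correction, 20 and 6 in the fit of 6 libraries, and 20 and 25 with DESeq2. A correction centred on mean log levels, which does not keep the TMM scaling, was added after seeing the data. It moved the median of all tested genes in clone 2 from 0.001 to 0.129 and gave 1763 calls there. The share of calls that were higher was 74.0% in clone 2 (53.9% without it) and 39.6% in clone 1 (25.6%). The medians past minus before the boundary were then 0.26 and -0.35. The difference of the medians was 0.33 in clone 1, -0.36 in clone 2 and -0.58 between clones. It was 0.43, -0.49 and -0.80 with a pseudocount of 0.1 CPM and 0.19, -0.24 and -0.34 with 2 CPM. Between clones it was -0.76 over tested genes and -0.72 over protein-coding genes. The summed level was 7518 CPM in clone 1 and 4564 in clone 2 (5910 in wild type) without TMM, and 5710 and 4061 (4655) without the 5 strongest genes. The cause was not tested. Leaving out 1 library at a time gave 200 to 1301 genes called in clone 1, 237 to 1584 in clone 2 and 3639 to 5782 between clones, and 2 to 17, 4 to 22 and 42 to 61 past the boundary. It gave median differences of 0.26 to 0.36, -0.47 to -0.33 and -0.68 to -0.56, and sums of 7087 to 7233 CPM and 4833 to 5022 CPM. Depth limits the 56 genes that did not pass the filter, for which the main fit gives no fold change or call.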
